A study of Mus musculus with 12 samples.

Results

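Acp5, Ctsk, Atp6v0d2, Tnfrsf11a, Nfatc1, Dcstamp, Ocstamp and Oscar, 8 genes by which osteoclasts are commonly recognised, were followed in murine bone marrow (BM)-derived macrophages with and without BMI1. They were chosen by gene symbol from a table of raw counts for 55573 genes, and all 8 symbols were found in it. The 12 RNA-seq libraries fell into 4 groups of 3, namely MM-MΦs of BMI1-KO and of wt mice and MΦs of BMI1-KO and of wt mice. BMI1-KO cells came from BMI1fl/fl Mx1-Cre C57BL/6 mice and wt cells from BMI1fl/fl mice without the Cre. Mx1-Cre is driven by an interferon-inducible promoter and is not restricted to macrophages. Mice of both genotypes were 6 to 8 weeks old when they were first given poly I:C, which induces interferon, by intraperitoneal injection (5 doses of 15 mg/kg, every other day), and BM was taken 4 weeks after the last dose. In all groups BM cells that adhered within 2 h were grown for 7 days in RPMI with 10% FBS and 5 ng/mL M-CSF. MM-MΦs were then co-cultured for 48 h with 5TGM1, a mouse myeloma cell line, and MΦs were not. Cells of all groups were sorted as CD11b+ F4/80+ before total RNA was sequenced. Each group had replicates numbered 1, 2 and 3, and the labels do not say whether these were separate mice.

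Osteoclasts are multinucleated cells that resorb bone and that form by fusion of precursors of the monocyte and macrophage lineage. M-CSF keeps the precursors alive and makes them express RANK, the receptor encoded by Tnfrsf11a, and RANK ligand then drives NFATc1, the transcription factor that switches on the genes of fusion and resorption. In multiple myeloma, osteoclast activity around the tumor is a cause of bone lesions. Bmi1, the gene targeted here, encodes a subunit of Polycomb repressive complex 1.

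Library totals were 9662279 to 11142768 counts. Bmi1 was listed at 0 in the 6 BMI1-KO libraries, against 251 to 364 counts in the 6 wt libraries. Dividing counts by FPKM gave library totals that were 512 to 734 larger than the column sums for BMI1-KO and within −1 to 0 of them for wt. The zeros of Bmi1 were therefore not taken as a check of the labels. The 8 macrophage markers summed to 12800 to 19400 CPM (counts scaled to a common library size) in all libraries. The 6 markers of mature osteoclasts, Atp6v0d2 and Ocstamp among them, summed to 58.8 to 229 CPM in BMI1-KO MM-MΦs, against 167 to 920 CPM in wt MM-MΦs, and to 71.2 to 251 CPM in BMI1-KO MΦs, against 137 to 914 CPM in wt MΦs. Atp6v0d2 alone had 17.2 to 210.9 CPM in BMI1-KO MM-MΦs and 159.8 to 905.4 CPM in wt MM-MΦs. The wt MM-MΦ sums were therefore mostly this member. Mmp9, another of the 6, went the other way, with 14.5 to 33.0 CPM in BMI1-KO MM-MΦs and 1.60 to 4.14 CPM in wt MM-MΦs. Of the 6, 4 passed the filter on low counts and 2 did not. In log2 fold change between genotypes 2 of the 4 were above 0 in MM-MΦs and 1 in MΦs. Calcr, the calcitonin receptor, had 0 to 2 counts per library, and Car2, the carbonic anhydrase that supplies protons for resorption, had 0 to 7 counts. The 4 libraries numbered 3 stood apart from the rest in many genes, as described for the members below.

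The upstream sequences of the genes for the enzymes TRAP and cathepsin K are shown because transcripts of both had lower values in BMI1-KO MM-MΦs, and so that the letters bound by known osteoclast factors can be seen in them. RefSeq promoter entries on GRCm38.p6 matched 4 of the 8 members (Acp5 with 3 start sites, Ctsk, Tnfrsf11a and Oscar), and Atp6v0d2, Nfatc1, Dcstamp and Ocstamp were not matched. The 250 bases before the most downstream of the 3 Acp5 start sites lie at chr9:22130599-22130848 on the minus strand, with 10 of these bases inside an exon of another Acp5 transcript. Those of Ctsk lie at chr3:95498960-95499209 on the plus strand. Capitals mark matches, on either strand, to the core GGAAA bound by NFAT factors (TTTCC when reversed), the M-box TCATGTGA bound by MITF and TFE factors (TCACATGA when reversed) and GAGGAA bound by PU.1 (TTCCTC when reversed). The AP-1 motif TGANTCA was also searched and had no match in either window. GGAAA and GAGGAA can share letters.
Acp5, upstream 250 bases: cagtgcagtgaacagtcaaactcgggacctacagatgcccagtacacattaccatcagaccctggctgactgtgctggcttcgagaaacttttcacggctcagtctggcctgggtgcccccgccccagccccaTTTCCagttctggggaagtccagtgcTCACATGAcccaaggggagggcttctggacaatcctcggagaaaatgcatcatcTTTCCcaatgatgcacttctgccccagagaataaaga
Ctsk, upstream 250 bases: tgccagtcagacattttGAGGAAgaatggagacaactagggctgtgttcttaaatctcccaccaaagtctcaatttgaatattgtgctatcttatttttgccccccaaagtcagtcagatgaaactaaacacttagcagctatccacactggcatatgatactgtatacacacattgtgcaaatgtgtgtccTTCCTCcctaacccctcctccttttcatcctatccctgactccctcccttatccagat
The Acp5 window held 2 NFAT cores, which start 117 and 37 bases before the start site, and 1 M-box, which starts 91 bases before it. This start site was chosen for display after its matches were seen, and the windows of the other Acp5 start sites held 1 NFAT core each and no M-box. The Ctsk window held 2 matches to GAGGAA, which start 233 and 58 bases before the start site, and no NFAT core. Among 32851 promoter windows of 250 bases, 55.6% held the NFAT core, 0.846% the M-box, 23.3% GAGGAA and 6.75% the AP-1 motif. A match is a description of these letters and not a measured binding site, and no binding was measured in these samples.

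The members spanned a wide range of levels. In FPKM, which the authors scaled by transcript length, Atp6v0d2 had the highest mean over the 12 libraries (117.7), followed by Tnfrsf11a (37.6), Acp5 (21.8), Nfatc1 (12.6) and Ctsk (5.63). Dcstamp (0.591), Ocstamp (0.296) and Oscar (0.0467) were at or near the limit of detection. Atp6v0d2 ranked 246 of the 14197 genes that passed the filter on low counts, and Ocstamp ranked 13535. Oscar was the only member that did not pass this filter. In BMI1-KO MM-MΦs the means were 43.4 ± 13.8 FPKM for Tnfrsf11a, 40.2 ± 34.2 for Atp6v0d2 and 8.69 ± 3.88 for Acp5 (SD, n = 3), against 34.1 ± 3.99, 185.2 ± 132 and 38.4 ± 22.5 FPKM in wt MM-MΦs. In wt MM-MΦs the lowest Atp6v0d2 library (62.9 FPKM) lay just under the highest Acp5 library (63.8 FPKM), and in BMI1-KO MM-MΦs Atp6v0d2 overlapped both Tnfrsf11a and Acp5, so that neighbours in the order of the means did not all differ beyond their spread. In MΦs there were 39.6 ± 15.7 FPKM of Tnfrsf11a, 46.9 ± 37.0 of Atp6v0d2 and 7.78 ± 2.99 of Acp5 in BMI1-KO MΦs, against 33.2 ± 5.25, 198.7 ± 137.8 and 32.2 ± 17.2 FPKM in wt MΦs.

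The first question was whether loss of BMI1 changed these genes. By edgeR's quasi-likelihood test in a fit of group means alone, no member passed an adjusted p of 0.05 between genotypes, in either culture. In this fit 0.0634% of the 14197 genes passed in MM-MΦs and 0.0493% in MΦs. At an unadjusted p of 0.05, 3 of the 7 members tested passed in MM-MΦs (Acp5, Ctsk and Atp6v0d2, all lower) and 1 in MΦs (Acp5, lower), against 5.02% and 5.77% of all genes. DESeq2 called 1 member in each comparison, Acp5, against 0.424% and 0.406% of the genes it tested, and limma-voom called none, against 0.0634% and 0.0563%. With a block for the replicate number over all 4 groups, edgeR called Acp5 and Atp6v0d2 in both comparisons, against 1.27% and 1.45% of all genes. For MM-MΦs and MΦs its adjusted p was 0.000638 and 0.00129 for Acp5 and 0.00214 and 0.00568 for Atp6v0d2. The calls thus depended on this block, and the labels give the numbers no meaning. Whatever is lower in a sorted population could be less RNA per cell or fewer cells that express the gene, and bulk libraries cannot tell these apart. Since the origin of the replicates is not stated, p-values measure the spread between these libraries, which may be technical.

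Acp5 encodes tartrate-resistant acid phosphatase (TRAP), the enzyme whose stain identifies osteoclasts, and also marks some tissue macrophages. It lies on chromosome 9 of GRCm38 from 22126727 to 22135711 on the minus strand, with 9 merged exons. In MM-MΦs it had 247, 179 and 106 counts in BMI1-KO replicates 1, 2 and 3, against 665, 1283 and 455 counts in wt replicates 1, 2 and 3. Scaled to library size the BMI1-KO values were 26.2, 17.9 and 9.48 CPM, and the wt values 66.4, 132.7 and 39.9 CPM. Every BMI1-KO library lay below every wt library. The log2 fold change was −2.16 (SE 0.57, adjusted p = 0.43 by edgeR and 0.0172 by DESeq2), a level 4.46-fold lower. In MΦs Acp5 had 194, 195 and 94 counts in BMI1-KO libraries, against 640, 1007 and 349 counts in wt libraries. The groups again did not overlap. The log2 fold change was −2.06 (SE 0.57, adjusted p = 0.476 by edgeR and 0.0292 by DESeq2). Among all genes tested, 4.46% in MM-MΦs and 4.83% in MΦs had BMI1-KO libraries that all lay below the wt libraries, and Acp5 was the 1 member of the 7 tested that did so in each comparison. Compared within replicate numbers, the log2 difference of Acp5 was −1.33, −2.87 and −2.05 in MM-MΦs and −1.68, −2.46 and −1.78 in MΦs for numbers 1, 2 and 3. Without the libraries numbered 3, the log2 fold change was −2.16 in MM-MΦs (adjusted p = 0.136 by edgeR) and −2.10 in MΦs (adjusted p = 0.18 by edgeR). Exons of Acp5 share 137 bases with exons of 6530413G14Rik on the other strand, which had 0 counts in the BMI1-KO libraries and 0 to 2 counts in the wt libraries. Whether the counting used strand is not stated.

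Atp6v0d2 encodes the d2 subunit of the proton pump (V-ATPase) that acidifies the resorption pit, and osteoclasts without it fuse poorly. It lies on chromosome 4 from 19876841 to 19922605 on the minus strand. In MM-MΦs it had 1984, 1057 and 192 counts in BMI1-KO libraries, against 4920, 8751 and 1822 counts in wt libraries. BMI1-KO replicate 1 lay above wt replicate 3, so that the groups overlapped. The log2 fold change was −2.22 (SE 1.002, adjusted p = 0.992 by edgeR, unadjusted p = 0.048). In MΦs the counts were 2213, 1315 and 302 in BMI1-KO libraries, against 6142, 8754 and 1527 in wt libraries, with the same overlap. The log2 fold change was −2.11 (SE 0.997, adjusted p = 0.896 by edgeR). Its fold change was as large as that of Acp5, with a larger SE. The wt MM-MΦ libraries spanned 159.8 to 905.4 CPM and the BMI1-KO MM-MΦ libraries 17.2 to 210.9 CPM. Within numbers 1, 2 and 3 the log2 difference was −1.22, −3.09 and −3.20 in MM-MΦs and −1.44, −2.83 and −2.24 in MΦs. Without the libraries numbered 3 its log2 fold change was −2.13 in MM-MΦs (adjusted p = 0.235 by edgeR) and −2.08 in MΦs (adjusted p = 0.284 by edgeR).

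Ctsk encodes cathepsin K, the protease that digests bone collagen. It lies on chromosome 3 from 95499256 to 95509362 on the plus strand. In MM-MΦs it had 73, 45 and 29 counts in BMI1-KO libraries, against 125, 177 and 83 counts in wt libraries. In CPM the highest BMI1-KO library (7.76) overlapped the lowest wt library (7.28). The log2 fold change was −1.36 (SE 0.55, adjusted p = 0.902 by edgeR, unadjusted p = 0.0296). In MΦs the counts were 74, 73 and 60 in BMI1-KO libraries, against 116, 151 and 39 in wt libraries. The BMI1-KO MΦ libraries were close together (5.45 to 7.71 CPM) and lay inside the range of the wt MΦ libraries (3.33 to 15.4 CPM), and the log2 fold change was −0.60 (SE 0.54, adjusted p = 0.976 by edgeR).

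**Figure D1:**
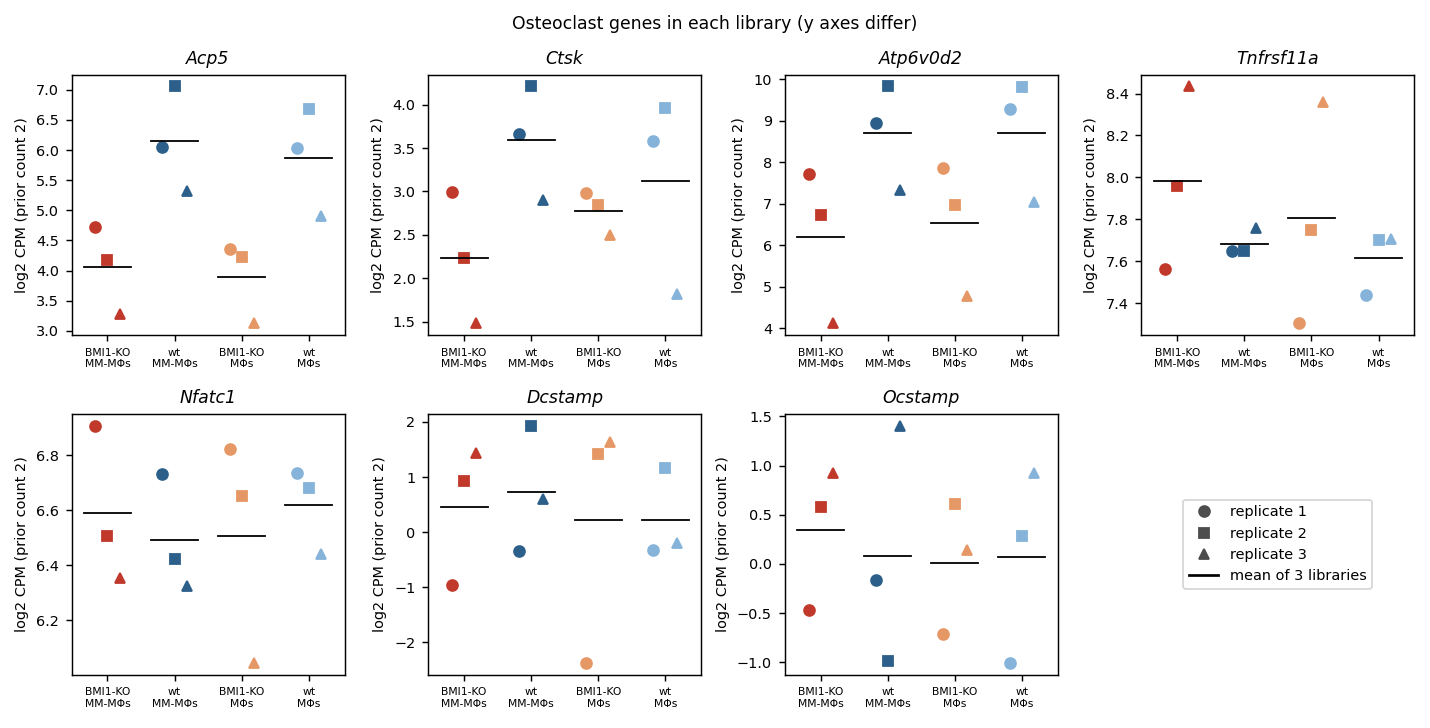
Log2 CPM with a prior count of 2 (y axis, on its own scale for each gene) of the 7 members tested in the 4 groups (x axis), with a marker shape per replicate (1 circle, 2 square, 3 triangle) and a black line for the mean of 3 libraries. Acp5 was lower in every BMI1-KO library than in every wt library of the same culture, Ctsk and Atp6v0d2 overlapped between genotypes, and triangles lay lowest in all 4 groups for Acp5, Ctsk, Atp6v0d2 and Nfatc1.

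Tnfrsf11a and Nfatc1, the receptor and the transcription factor at the head of the pathway, were well expressed in all groups and had no such difference. Tnfrsf11a encodes RANK and lies on chromosome 1 from 105780718 to 105847981 on the plus strand. It had 189, 248.3 and 345.6 CPM in BMI1-KO MM-MΦs, against 200.3, 200.2 and 216.3 CPM in wt MM-MΦs, a log2 fold change of 0.34 (SE 0.26, adjusted p = 0.999 by edgeR). In MΦs it had 157.8, 215 and 328.5 CPM in BMI1-KO libraries, against 173.4, 207.8 and 208.4 CPM in wt libraries (a log2 change of 0.25, SE 0.26, adjusted p = 0.977 by edgeR). BMI1-KO libraries were both below and above the wt range, and their SDs (79.1 CPM in MM-MΦs and 86.9 CPM in MΦs) stood against 9.29 and 20.0 CPM in the wt groups. Nfatc1, on chromosome 18, encodes the master transcription factor of osteoclast formation and spanned 65.9 to 119.8 CPM over the 12 libraries, a ratio of 1.82 between the highest and the lowest library, against 2.19 for Tnfrsf11a and 52.7 for Atp6v0d2. In MM-MΦs it had 97.4 ± 19.9 CPM in BMI1-KO libraries and 90.5 ± 13.7 CPM in wt libraries (SD, n = 3 each), and the log2 fold change was 0.11 (SE 0.21, adjusted p = 0.999 by edgeR). In MΦs it had 93.1 ± 24.4 CPM in BMI1-KO libraries and 98.4 ± 10.4 CPM in wt libraries (a log2 change of −0.08, SE 0.21, edgeR adjusted p of 1). NFATc1 is known to activate Acp5 and Atp6v0d2 in osteoclasts, and both had lower mean values in BMI1-KO libraries. Nfatc1 transcript differed by less than its SE, which does not show that its level was equal. These counts do not measure NFATc1 protein, and its part in the values of Acp5 and Atp6v0d2 was not tested.

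Dcstamp and Ocstamp encode the membrane proteins DC-STAMP and OC-STAMP, which precursors need in order to fuse. Dcstamp lies on chromosome 15 from 39745930 to 39760938 and Ocstamp on chromosome 2 from 165393760 to 165400405. Dcstamp had 3, 17 and 28 counts in BMI1-KO MM-MΦs, against 6, 35 and 15 counts in wt MM-MΦs, and 0, 26 and 32 counts in BMI1-KO MΦs, against 6, 20 and 8 counts in wt MΦs. Ocstamp had 5, 13 and 19 counts in BMI1-KO MM-MΦs, against 7, 3 and 28 counts in wt MM-MΦs, and 4, 14 and 10 counts in BMI1-KO MΦs, against 3, 10 and 20 counts in wt MΦs. Their groups overlapped throughout. At this depth the log2 fold changes in MM-MΦs, −0.27 for Dcstamp and 0.02 for Ocstamp, had SEs of 1.05 and 0.80, and a difference within these errors was not detectable. Oscar, which lies on chromosome 7 from 3609813 to 3616157, encodes a receptor that costimulates osteoclasts through FcRγ. Its counts summed over the group to 3 for BMI1-KO and 2 for wt among MM-MΦs, and to 2 for BMI1-KO and 4 for wt among MΦs, and no fold is given because all 4 totals were near the floor of 3 counts.

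The second question was whether co-culture with myeloma cells changed these genes. No member passed in BMI1-KO MM-MΦs relative to BMI1-KO MΦs or in wt MM-MΦs relative to wt MΦs, by edgeR, DESeq2 or limma-voom, and none had an unadjusted p under 0.05. In these comparisons 0.190% and 0.0916% of all genes passed in edgeR, 0.450% and 0.352% in DESeq2 and 0.176% and 0.0141% in limma-voom, and 2.94% and 1.99% had an unadjusted p under 0.05. Acp5 had 532 counts in all in BMI1-KO MM-MΦs and 483 in BMI1-KO MΦs, and the log2 fold change was 0.18 (SE 0.56). In wt cells it had 2403 counts in MM-MΦs and 1996 in MΦs, and the log2 fold change was 0.27 (SE 0.54). Atp6v0d2 had log2 fold changes of −0.20 (SE 0.96) in BMI1-KO cells and −0.08 (SE 0.96) in wt cells. Without this pairing the edgeR adjusted p was 1 for all 7 members in both comparisons. The median log2 fold change over the 7 members was 0.065 in BMI1-KO cells and 0.195 in wt cells, against −0.007 and 0.003 over all genes. Of 8 markers of plasma and myeloma cells 4 were tested, and by co-culture edgeR called 1 (Igkc, higher) in BMI1-KO cells and 0 in wt cells. DESeq2 called 2 in BMI1-KO cells and 1 in wt cells. In wt replicates 1, 2 and 3, Ighg2b had 424, 1170 and 716 counts in MM-MΦs, against 0, 113 and 19 in MΦs. Igkc had 423, 1327 and 831 counts in wt MM-MΦs, against 12, 157 and 31 in wt MΦs. The 8 summed to 107 to 238 CPM in BMI1-KO MM-MΦs, against 12 to 27.5 CPM in BMI1-KO MΦs, and to 154 to 411 CPM in wt MM-MΦs, against 33.9 to 162 CPM in wt MΦs. Jchain, Mzb1, Tnfrsf17 and Cd79a among them had 0 to 12 counts per library, and Sdc1 had log2 fold changes of 0.16 in BMI1-KO cells and −0.01 in wt cells. Sdc1 alone had 84.0, 119.4 and 24.2 CPM in wt MΦs and 60.6, 134.3 and 31.8 CPM in wt MM-MΦs. The wt MΦ sums were therefore mostly this gene. In BMI1-KO cells Sdc1 had 21.56, 7.34 and 14.25 CPM in MΦs and 19.98, 14.53 and 13.69 CPM in MM-MΦs. The part of plasma and myeloma cells in the members' values was not tested.

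Whether co-culture acted differently in the 2 genotypes was tested as an interaction. None of the 7 members passed, nor did any other gene in edgeR, DESeq2 or limma-voom. None of the 7 members had an unadjusted p under 0.05, against 0.909% of all genes in edgeR. Ctsk had a log2 difference between the co-culture effects of −0.76 (SE 0.76, edgeR adjusted p of 1). For numbers 1, 2 and 3 its log2 difference between MM-MΦs and MΦs was 0.01, −0.60 and −1.02 in BMI1-KO cells, against 0.08, 0.24 and 1.09 in wt cells. Acp5 (−0.09, SE 0.77) and Atp6v0d2 (−0.12, SE 1.36) had smaller values.

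**Figure D2:**
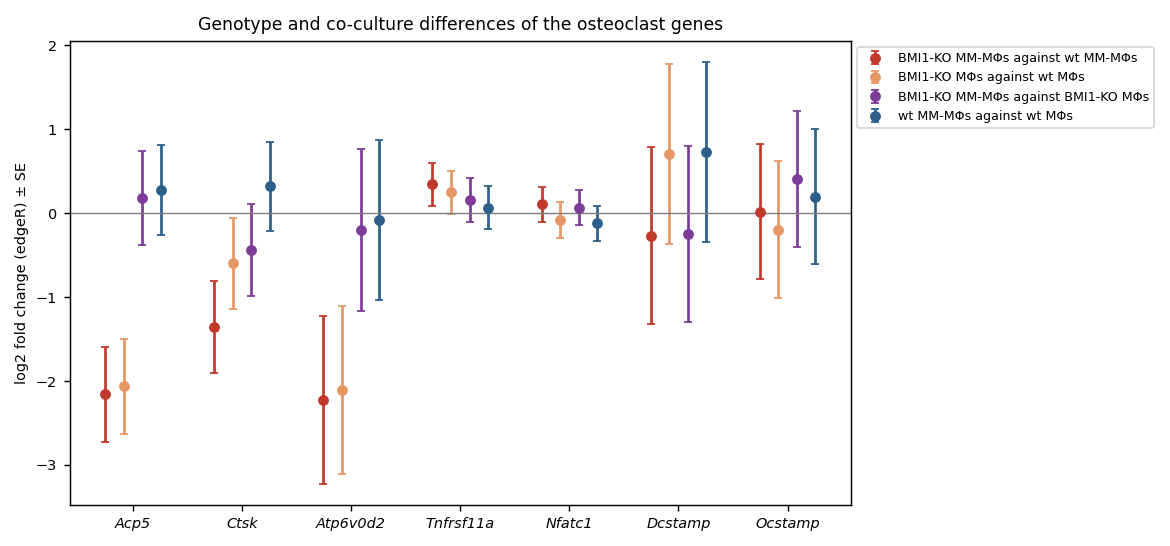
EdgeR log2 fold changes (y axis) with their SE (bars) of the 7 members tested (x axis) in the 2 comparisons of genotype and the 2 of co-culture (colors). Acp5 lay at −2.16 and −2.06 and Atp6v0d2 at −2.22 and −2.11 in the comparisons of genotype, and all co-culture values lay between −0.44 and 0.73.

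The members also varied with the replicate number. The labels give the numbers no meaning. In a fit of group and number, 6 of the 7 members tested differed between numbers at an edgeR adjusted p under 0.05 (all but Ocstamp, adjusted p = 0.0818), where 29.2% of all genes did, and limma-voom called the same 6, against 29.6% of all genes. This fit counts the MΦ and MM-MΦ libraries of 1 genotype and number as separate, although they deviated from their group means together. With their counts summed to 6 columns, 1 member passed, Atp6v0d2 (adjusted p = 0.0259 by edgeR), against 7.21% of all genes, and Acp5 had an adjusted p of 0.0527. The number of members called fell to 4 without BMI1-KO MΦ replicate 1 and without BMI1-KO MM-MΦ replicate 1, since Tnfrsf11a and Dcstamp were lost. Mean Atp6v0d2 over the 4 groups was 389.2 CPM in libraries numbered 1, 507.6 in those numbered 2 and 83.7 in those numbered 3. Its log2 fold change of number 3 against number 1 was −2.68, larger than either genotype difference. Acp5 (−1.15), Ctsk (−1.13) and Nfatc1 (−0.51) were also lower in number 3 than in number 1, and number 3 was the lowest of the 3 libraries in all 4 groups for each of these 4 genes. Tnfrsf11a (0.58) was higher, with number 3 the highest in all 4 groups, but by little in the wt groups. For numbers 1, 2 and 3 it had 173.4, 207.8 and 208.4 CPM in wt MΦs and 200.3, 200.2 and 216.3 CPM in wt MM-MΦs. In BMI1-KO cells it had 157.8, 215 and 328.5 CPM in MΦs and 189, 248.3 and 345.6 CPM in MM-MΦs. Dcstamp was lowest in number 1 in all 4 groups, with a mean of 0.382 CPM there, 2.46 CPM in number 2 and 1.85 CPM in number 3. Proliferation markers moved with the number too. The 6 markers summed to 265.6 to 586.8 CPM in number 1, 673.3 to 771.8 CPM in number 2 and 823.2 to 2310 CPM in number 3, and all 6 passed the test of number. In number 3 the sums were 823.2 and 887.2 CPM in BMI1-KO libraries, against 2242 and 2310 CPM in wt libraries. Between genotypes all 6 lay below 0, with medians of −0.876 in MM-MΦs and −1.032 in MΦs, and edgeR called 0. The part of proliferation in the members' values was not tested.

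**Figure D3:**
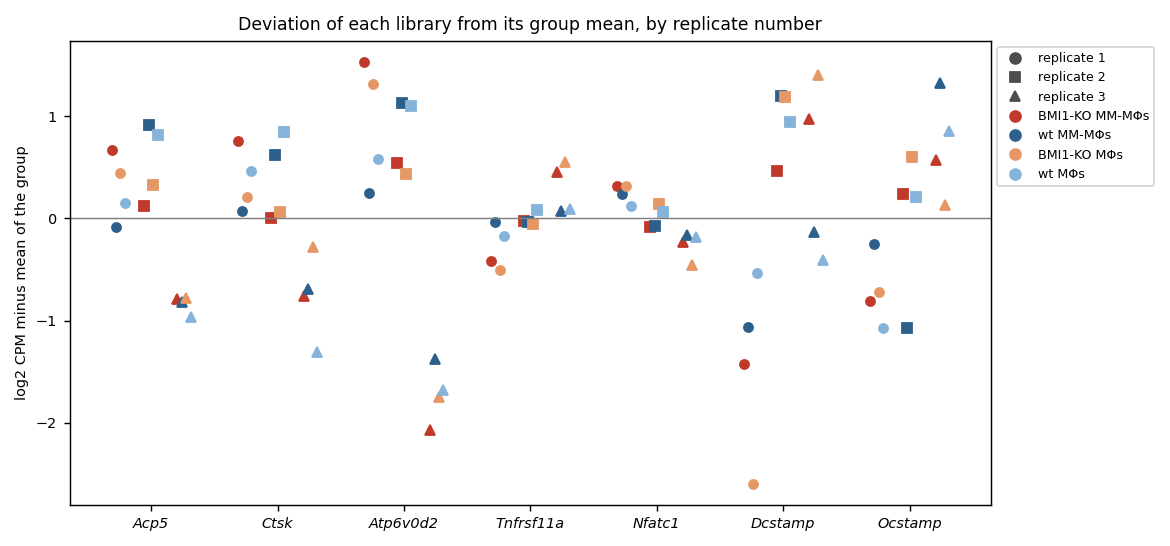
Log2 CPM of each library minus the mean of its group (y axis) for the 7 members tested (x axis), with the 3 replicate numbers side by side (circles, squares, triangles) and the 4 groups in color. In number 3 Acp5, Ctsk, Atp6v0d2 and Nfatc1 lay below 0 and Tnfrsf11a above 0 in all 4 groups, Tnfrsf11a by 0.09 or less in the wt groups.

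Across the 12 libraries Acp5, Ctsk and Atp6v0d2 varied together, with Pearson's r of log2 CPM of 0.94 between Acp5 and Atp6v0d2, 0.89 between Ctsk and Atp6v0d2 and 0.84 between Acp5 and Ctsk. Tnfrsf11a went the other way (−0.81 with Atp6v0d2). These 12 points share genotype and replicate number, so the coefficients describe the libraries and carry no test. Of all 14197 genes, those most like Acp5 were Itgax, which encodes the integrin CD11c (r = 0.989), Eef1a2, a translation elongation factor (0.978), and Mfge8, a bridge in the uptake of apoptotic cells (0.976). Those most like Atp6v0d2 were Cd200, the ligand of an inhibitory receptor of myeloid cells (0.998), Stac2 (0.988) and Mrgpre (0.986). Those most like Ctsk were Ngrn (0.957), Gm20056 (0.95) and Sestd1 (0.95). Tnfrsf11a was most like Cspg4 (0.958), Srgap3 (0.957) and Eef1e1 (0.954), and Nfatc1 most like Hivep3 (0.949), Sirt2 (0.949) and Mirt1 (0.943). For the 2 fusion genes the nearest were Hip1 (0.922), Plekha5 (0.896) and Cabyr (0.886) with Dcstamp, and Yeats2 (0.923), Plpp5 (0.922) and Pla2g4a (0.908) with Ocstamp.

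Itgax had 504, 316 and 159 counts in BMI1-KO MM-MΦs, against 1882, 5719 and 1024 counts in wt MM-MΦs, and the log2 fold change was −3.13 (SE 0.86, adjusted p = 0.496 by edgeR). It is also a marker of dendritic cells. The list of 7 dendritic cell markers that holds it summed to 14.8 to 55.1 CPM in BMI1-KO MM-MΦs, against 90.4 to 593 CPM in wt MM-MΦs, and to 13.5 to 62.3 CPM in BMI1-KO MΦs, against 94.0 to 539 CPM in wt MΦs. Itgax was the only one of the 7 to pass the filter. Flt3, Zbtb46, Cd209a, Ccr7 and Xcr1 had 0 to 9 counts per library, and Siglech had 0 in all 12.

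The wider osteoclast pathway was described by 10 lists that hold no member. None of their genes passed in any of the 5 comparisons of groups in the edgeR fit with group means or in limma-voom. At an unadjusted p under 0.05 between genotypes there were 3 genes of the resorption machinery, 2 of ITAM costimulation and 1 transcription factor in MM-MΦs, and the same numbers in MΦs, and by co-culture 1 cathepsin in each genotype. These stand beside 5.02% and 5.77% of all genes between genotypes and 2.94% and 1.99% by co-culture, and are not read as a result about the lists. In MM-MΦs the resorption machinery had 13 of 15 genes tested, with 4 above 0 and 9 below 0 and a median log2 fold change of −0.044 between genotypes, against −0.27 over the 7 members and −0.014 over all genes. By DESeq2 2 of these 13 were called, both higher in BMI1-KO MM-MΦs. Mmp9, which encodes a secreted gelatinase that osteoclasts and neutrophils make, had 136, 260 and 369 counts in BMI1-KO MM-MΦs, against 16, 40 and 32 counts in wt MM-MΦs. The log2 fold change was 3.10 (SE 0.62, adjusted p = 0.183 by edgeR and 4.81e-05 by DESeq2). In MΦs it had 134, 232 and 387 counts in BMI1-KO libraries, against 12, 66 and 24 counts in wt libraries (a log2 change of 2.83, SE 0.61, adjusted p = 0.248 by edgeR and 0.000481 by DESeq2). The direction of Mmp9 was opposite to that of Acp5, Ctsk and Atp6v0d2. Neutrophil markers were also higher in some BMI1-KO libraries. Their 8 genes summed to 16.0 to 155 CPM in BMI1-KO MM-MΦs, against 6.69 to 19.7 CPM in wt MM-MΦs, and to 8.44 to 80.4 CPM in BMI1-KO MΦs, against 5.99 to 16.3 CPM in wt MΦs. The 4 of them that passed the filter were highest in replicate 2 of both BMI1-KO groups, and Mmp9 was highest in replicate 3 of both. The part of neutrophils in the value of Mmp9 was not tested. Sh3pxd2a, which encodes the podosome scaffold Tks5, had a log2 fold change of 0.74 (SE 0.14, adjusted p = 0.132 by edgeR and 0.00229 by DESeq2) in MM-MΦs and Itgav, the αv integrin chain, of 0.75 (SE 0.21, adjusted p = 0.498 by edgeR) in MΦs. Rab7, which traffics vesicles to the ruffled border, had the highest mean level of the list (177.4 FPKM) and a log2 fold change of −0.12 (SE 0.11) in MM-MΦs.

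The signalling lists held genes on both sides of 0. The 19 genes of RANK and calcineurin signalling had a median of −0.004 in MM-MΦs and 0.031 in MΦs, with Tab2, an adaptor of the kinase TAK1, at 0.15 (SE 0.12) in MM-MΦs and Fos, the AP-1 subunit with the highest level, at −0.07 (SE 0.31). Among 10 of 11 genes tested of ITAM costimulation, the route that Oscar feeds, the median was 0.043 in MM-MΦs and 0.101 in MΦs. Blnk, an adaptor below this route, was lower in all 3 BMI1-KO libraries of each culture, with 1844, 1841 and 1362 counts in BMI1-KO MM-MΦs, against 2718, 2959 and 2619 counts in wt MM-MΦs (a log2 change of −0.68, SE 0.23, adjusted p = 0.716 by edgeR). Over all genes tested, 4.46% in MM-MΦs and 4.83% in MΦs had BMI1-KO libraries that all lay below the wt libraries. Tyrobp, the ITAM adaptor DAP12, was the most abundant of the list (1073 FPKM), and the log2 fold change was 0.12 (SE 0.21) in MM-MΦs. Among 8 of 9 fusion genes tested the median was 0.034 in MM-MΦs and 0.059 in MΦs, with the tetraspanin Cd9 at −0.55 (SE 0.29) in MM-MΦs. Among 8 of 9 transcription factors tested it was −0.051 and −0.009, with Mef2c at 0.55 (SE 0.21) in MM-MΦs and Spi1, which encodes PU.1, at 0.10 (SE 0.16). Among 10 of 11 repressors of osteoclast formation tested it was −0.011 and 0.047, with Irf8 at 0.23 (SE 0.19) in MM-MΦs.

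Relatives of the members were compared as families. The list of other V-ATPase subunits also holds accessory proteins and leaves out Tcirg1, which encodes the a3 subunit and stands with the resorption machinery. Tcirg1, named after its values were seen, had 677.4, 575.3 and 458.9 CPM in BMI1-KO MM-MΦs, against 766.7, 887.4 and 454.5 CPM in wt MM-MΦs. Its values were 679.5, 561.6 and 361.4 CPM in BMI1-KO MΦs, against 910.9, 788.9 and 452.1 CPM in wt MΦs. Among 17 of 23 genes of the V-ATPase list tested, 4 lay above 0 and 13 below 0 in MM-MΦs, with a median log2 fold change of −0.038 and a lowest value of −0.76 (Atp6v1g2, SE 0.44), against −2.22 for Atp6v0d2. In MΦs 6 lay above 0 and 11 below 0, with a median of −0.061 and a lowest value of −1.81 (Atp6v1c1, SE 0.997), against −2.11 for Atp6v0d2. Atp6v1c1 had 33, 26 and 26 counts in BMI1-KO MΦs, against 24, 242 and 23 counts in wt MΦs, so that 1 wt library was far above the others, and its log2 fold change ran from −2.29 to 0.32 when 1 library was left out. Atp6v0d1, the d subunit found in most cells, had 72.0 to 91.7 FPKM in the 12 libraries, against 6.34 to 325.6 FPKM for Atp6v0d2, and was named after its values were seen. Among 11 of 13 other cathepsins tested the median was 0.111 in MM-MΦs and 0.084 in MΦs. Ctss, the cathepsin of antigen presentation, was the lowest at −0.68 (SE 0.34, adjusted p = 0.999 by edgeR) in MM-MΦs, and Ctsd, the most abundant of the list, lay at 0.11 (SE 0.26). Among 3 of 4 other NFAT genes tested, Nfat5 lay at 0.29 (SE 0.18) and Nfatc2 at 0.07 (SE 0.14) in MM-MΦs. Among 9 of 13 genes for ligands, decoy and cytokine receptors tested the median was −0.099 in MM-MΦs and −0.188 in MΦs. Tnfsf11, which encodes RANK ligand, and Tnfrsf11b, which encodes its decoy receptor, did not pass the filter. By replicate number the genes called by edgeR were 10 of 10 repressors, 8 of 9 ligands and receptors, 6 of 8 fusion genes, 7 of 11 cathepsins, 5 of 8 transcription factors, 7 of 13 genes of the resorption machinery, 9 of 19 of RANK signalling, 8 of 17 V-ATPase subunits, 4 of 10 of ITAM costimulation and 1 of 3 NFAT genes. In this fit, which counts paired libraries as separate, 29.2% of all genes were called, and with both cultures summed 7.21% were.

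**Figure D4:**
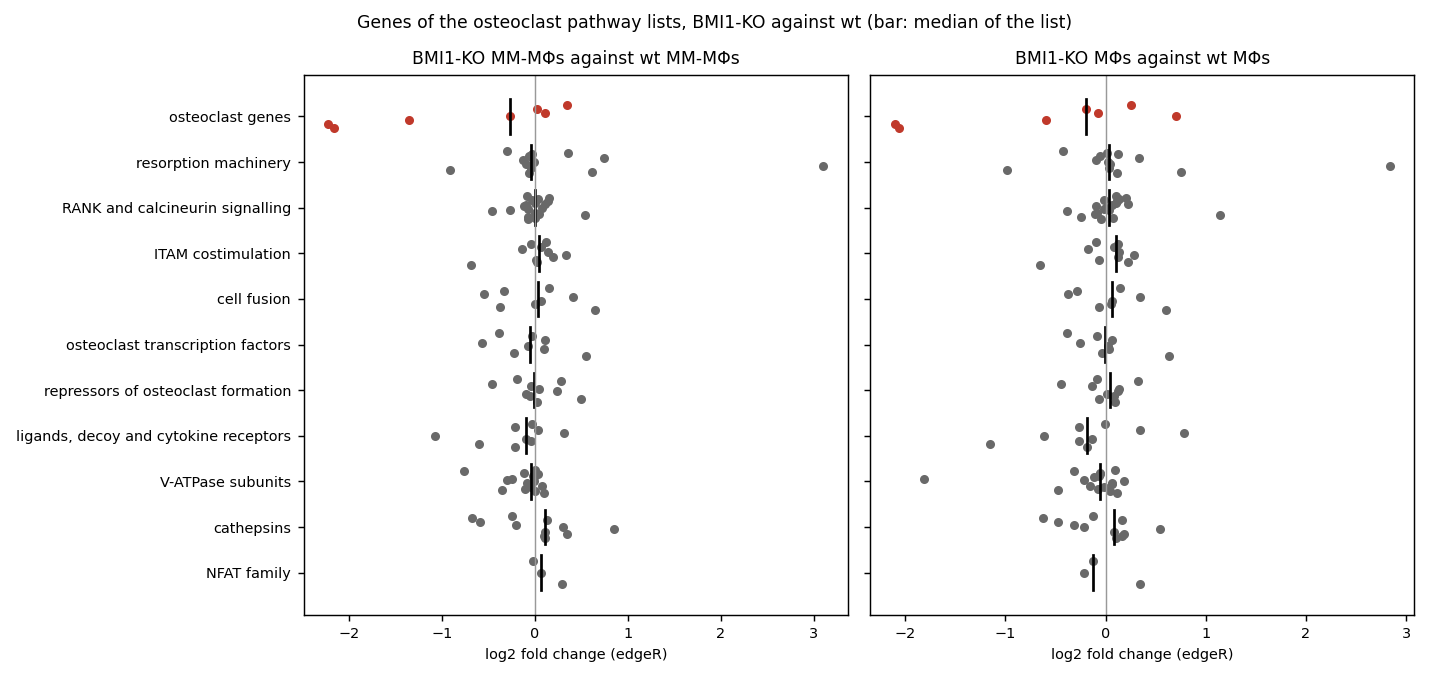
EdgeR log2 fold changes (x axis) of the members (red) and of the genes of the 10 lists (grey), 1 row per list, BMI1-KO against wt, in MM-MΦs (left) and in MΦs (right), with a black bar at the median of each list. Acp5 and Atp6v0d2 lay below −2 in both panels, Mmp9 stood at 3.10 and 2.83, and the medians of the 10 lists lay between −0.188 and 0.111.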

How the data were processed

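RNA of sorted macrophages was sequenced in 12 libraries, 3 in each of 4 groups taken from the sample labels. The authors deposited 1 table of raw counts per gene and FPKM values (fragments scaled by transcript length and library size) for 55573 genes. The submitters' processing notes name bcl2fastq 2.17.1.14, cutadapt 1.9.1, HISAT2 2.0.1, HTSeq 0.6.1, DESeq2 and GRCm38/mm10, and name neither the annotation release nor a strand setting (not given in the sources used here).

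The counts went into edgeR 4.0.16 (R 4.3.3, TMM scaling, filterByExpr with a minimum count of 10, quasi-likelihood test, Benjamini-Hochberg adjustment over all 14197 genes that passed, threshold 0.05). All 12 libraries entered 1 fit with a mean per group. DESeq2 1.42.0, limma-voom (limma 3.58.1), other scalings and filters, a replicate block and leaving out each library were alternatives. CPM were scaled by TMM, and log2 CPM had a prior count of 2. FPKM served to describe levels of genes by group and library and to check library totals, and entered no test. Gene positions, strands, exons and exon overlaps are those of the GENCODE vM21 annotation, on GRCm38.

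The members, the lists and the tests were chosen with earlier results of these data known. Named genes are all members, and of each list the genes past the threshold, the 2 with the smallest p in each comparison described (not all of which are printed) and the gene with the highest level, with the 3 genes most correlated with each member. MΦ and MM-MΦ libraries of the same genotype and number deviated from their group means together (for numbers 1 to 3 the correlations were 0.64, 0.18 and 0.6 among BMI1-KO libraries, against 0.55, 0.36 and 0.73 among wt libraries), so the numbers pair the cultures within a genotype, as read from the data. A block for these pairs changed no call of a member. With it edgeR called 2.17% of all genes by co-culture in BMI1-KO cells and 1.10% in wt cells.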

Additional observations from a re-analysis of the deposited data

How the results depend on the processing

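In both comparisons of genotype DESeq2 called 1 member (Acp5) and a replicate block over all 4 groups called 2 (Acp5 and Atp6v0d2), against 0 in the edgeR fit without a block. With this block the adjusted p of Acp5 was 0.000638 in MM-MΦs and 0.00129 in MΦs and that of Atp6v0d2 was 0.00214 and 0.00568. Over all alternatives the adjusted p of Acp5 ranged up to 0.999 in MM-MΦs and 0.98 in MΦs, and that of Atp6v0d2 up to 1 in both. Of the other genes named, the same block called Blnk, Ctss, Mmp9 and Sh3pxd2a in MM-MΦs and Blnk, Ctss, Itgav and Mmp9 in MΦs. DESeq2 called Mmp9 in both and Sh3pxd2a in MM-MΦs, and edgeR without a filter called Mmp9 in MM-MΦs. The labels link same-numbered libraries of different genotype by the number alone and give it no meaning. For numbers 1 to 3 their deviations correlated at 0.50, 0.03 and 0.51 in MM-MΦs and 0.48, −0.03 and 0.50 in MΦs. Numbers 1 and 3 thus shared deviations across genotypes, and number 2 did not. In each pair of groups 4 of 6 libraries correlated best with their own number. Within a genotype the block gave a Ctsk interaction of −0.95 (adjusted p = 0.999) and changed no member call. By replicate number the count of members called was 1 with counts summed over both cultures. Leaving out 1 library at a time gave 0 to 0 members in the 5 comparisons of groups and 4 to 6 by number. The libraries numbered 3 were left out after seeing the data, and 0 members passed in the 5 comparisons.

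Over all genes, edgeR called 9 in MM-MΦs and 7 in MΦs between genotypes, against 21 and 14 without a filter, 4 and 2 with only the libraries compared, 79 and 68 with DESeq2 and 181 and 206 with the block over 4 groups (1.27% and 1.45%).

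Of 1547 values of single genes under an alternative, 1446 kept their direction and side of the threshold, 68 reversed, 19 passed it newly and 14 no longer passed, and the causes were not tested. Between genotypes in MM-MΦs limma-voom gave 0.17 for Atp6v1c1, and leaving out 1 library gave −0.76 to 1.04 for Atp6v1c1, −0.0247 to 0.0607 for Btk, −0.84 to 0.65 for Dcstamp, −0.0706 to 0.23 for Nfatc1, −0.0557 to 0.17 for Nfatc2, −0.42 to 1.22 for Ocstamp and −0.88 to 0.0105 for Pirb. In MΦs limma-voom gave −0.32 for Dcstamp, and without the libraries numbered 3 the values were −0.0781 for Dcstamp, 0.0419 for Nfatc1, 0.41 for Ocstamp, −0.019 for Ppp3r1 and −0.0241 for Tnfrsf11a. Leaving out 1 library gave −2.29 to 0.32 for Atp6v1c1, −0.24 to 0.12 for Nfatc1, −0.61 to 0.42 for Ocstamp and −0.0775 to 0.47 for Tnfrsf11a. For co-culture in BMI1-KO cells limma-voom gave 0.65 for Dcstamp, leaving out number 3 gave −0.0195 for Nfatc1, and leaving out 1 library gave −0.20 to 0.50 for Acp5, −1.05 to 0.54 for Atp6v0d2, −0.82 to 0.29 for Dcstamp, −0.13 to 0.23 for Nfatc1 and −0.084 to 0.49 for Tnfrsf11a. In wt cells the block over all 4 groups gave 0.0364 for Atp6v0d2, leaving out number 3 gave −0.39 for Ocstamp, and leaving out 1 library gave −0.31 to 0.75 for Acp5, −0.76 to 0.46 for Atp6v0d2, −0.10 to 0.75 for Ctsk, −0.19 to 1.49 for Dcstamp, −1.01 to 0.81 for Ocstamp and −0.016 to 0.11 for Tnfrsf11a. For the interaction limma-voom gave 0.0797 for Dcstamp, and leaving out 1 library gave −0.56 to 0.50 for Acp5, −0.97 to 0.63 for Atp6v0d2, −0.0049 to 0.35 for Nfatc1, −0.40 to 1.42 for Ocstamp and −0.15 to 0.43 for Tnfrsf11a.

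With 3 libraries per group, leaving out a single library did not turn the direction of Acp5, Atp6v0d2 or Ctsk between genotypes. Leaving out 1 library moved Acp5 between −2.54 and −1.57 in MM-MΦs and between −2.41 and −1.59 in MΦs, Atp6v0d2 between −3.08 and −1.54 and between −2.85 and −1.56, and Ctsk between −1.83 and −0.99 and between −1.02 and −0.17. Dcstamp, Ocstamp and Oscar were limited by their low counts.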
